A study of Mus musculus with 6 samples.

Results

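The glycosyltransferases examined here were the genes whose symbols begin with Galnt, C1galt1, Gcnt, B3gnt, B3galt, B4galt, B4galnt, Mgat, Fut, St3gal, St6gal or St8sia, the enzyme families that build mucin-type O-glycans, N-glycans and the sugar chains of glycolipids. The rule was read from gene symbols alone, and 88 of the 23366 genes in the count tables met it. They were placed in 12 enzyme classes by symbol stem. The comparison asked how transcripts of each class differed in the embryonic gut epithelium when Tcf7l1, a transcription factor of the WNT pathway, was deleted.

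RNA was sequenced from the small intestine of mouse embryos at embryonic day 13.5, with no treatment. Each library came from 500 live cells sorted for EpCAM, a surface protein of epithelial cells. In 3 libraries (mutant) the embryos were Shh-cre-egfp:Tcf7l1 lox/lox, in which Cre driven from the Shh locus recombines the floxed Tcf7l1 allele in the gut epithelium. The other 3 libraries (wild type) came from embryos labelled wild type. Whether a library held 1 embryo or several, and whether wild type embryos carried the Cre allele, is not given in the sources used here, so Tcf7l1 loss and the Cre allele cannot be told apart. The p-values measure only the spread between these libraries, which may be technical.

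The libraries held 18216537 to 20397278 counted reads. Tcf7l1 was lower in every mutant library, with 40, 31 and 66 reads against 508, 508 and 383 in wild type. Shh, at the locus that carries Cre, was also lower (log2 fold change -1.28, SE 0.17, adjusted p = 6.1e-05). All wild type libraries held reads of 4 Y-linked genes and none of Xist, while the mutant libraries held 229, 424 and 289 Xist reads and none of the 4 Y-linked genes, so genotype and sex cannot be told apart. All 8 epithelial markers were detected in both groups. Their log2 fold changes had a median of -0.41, with 2 positive and 6 negative. In mutants 3 were called lower (Cdh1 at -0.57, Cdx2 at -0.68 and Krt18 at -0.54), the direction of most called glycosyltransferases. These were 37.5% of the list, where 5.83% of all tested genes were called lower. Krt19 (-0.49, adjusted p = 2.8e-05) and Krt8 (-0.32, adjusted p = 0.00105) were not called, but every mutant library was below wild type. At an adjusted p under 0.05, 5 of the markers were lower and 1 was higher. Epcam, the sorted marker, went the other way (0.25, adjusted p = 0.013), with every mutant library above wild type, as did Cldn3 (0.10, adjusted p = 0.284). Vil1 was at -0.06 (adjusted p = 0.68). The part of these marker differences in the glycosyltransferase differences was not tested. The defining goblet cell genes Muc2 and Zg16 were at or near 0, and of the endothelial markers none passed the filter on low counts.

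Glycosyltransferases act stepwise in the Golgi apparatus, each moving a given sugar from its nucleotide donor onto a growing chain. Mucin-type O-glycans begin with N-acetylgalactosamine (GalNAc) on serine or threonine, are lengthened through core structures with galactose and N-acetylglucosamine (GlcNAc), and end in caps of fucose or sialic acid. In the gut these chains make up much of the mucus and of the cell surface that bacteria and lectins meet, and the choice of cap differs between regions of the tract and between stages of development.

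Of the 88 genes, 61 passed the filter on low counts and were tested. A gene was called where the adjusted p of edgeR's quasi-likelihood test was under 0.01, the log2 fold change was at least 0.5 in size and the mean normalized count was at least 50. By this rule 3 glycosyltransferases were called higher in mutants (St3gal4, St3gal6 and B4galnt2) and 8 lower (Gcnt3, St6gal1, Fut8, St8sia3, Fut2, Fut4, B4galt1 and Mgat1). The share called was 18.0% of those tested, against 8.62% of the 12501 genes tested in the whole table. In direction, 4.92% were called higher where the background was 2.78%, and 13.1% lower where the background was 5.83%.

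At an adjusted p under 0.05 alone, 7 glycosyltransferases were higher and 14 lower, where 13.6% of all tested genes were higher and 15.1% lower. Together they were 34.4% of the glycosyltransferases tested, near the 28.7% of all tested genes. The mutant libraries lay entirely above wild type for 8 of them and entirely below for 24, with 20.8% and 22.2% of all tested genes in these positions. Groups that did not overlap thus made up 52.5% of the tested glycosyltransferases and 43.0% of all tested genes. The median log2 fold change was -0.27, where that of all tested genes was -0.04, and 43 of the 61 were negative (47 without TMM factors and 33 with a correction for gene length). The split of the calls depended on the scaling: without TMM factors, which moves the median of all genes to -0.15, it was 1 higher and 8 lower, and with a correction for gene length, which moves that median to 0.10, it was 6 higher and 5 lower. With that correction centred on a median offset of 0, an alternative chosen after seeing the data, it was 2 higher and 6 lower, and 45 of the 61 were negative. Fewer cells of a type and less RNA per cell cannot be told apart in these bulk samples.

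**Figure D1:**
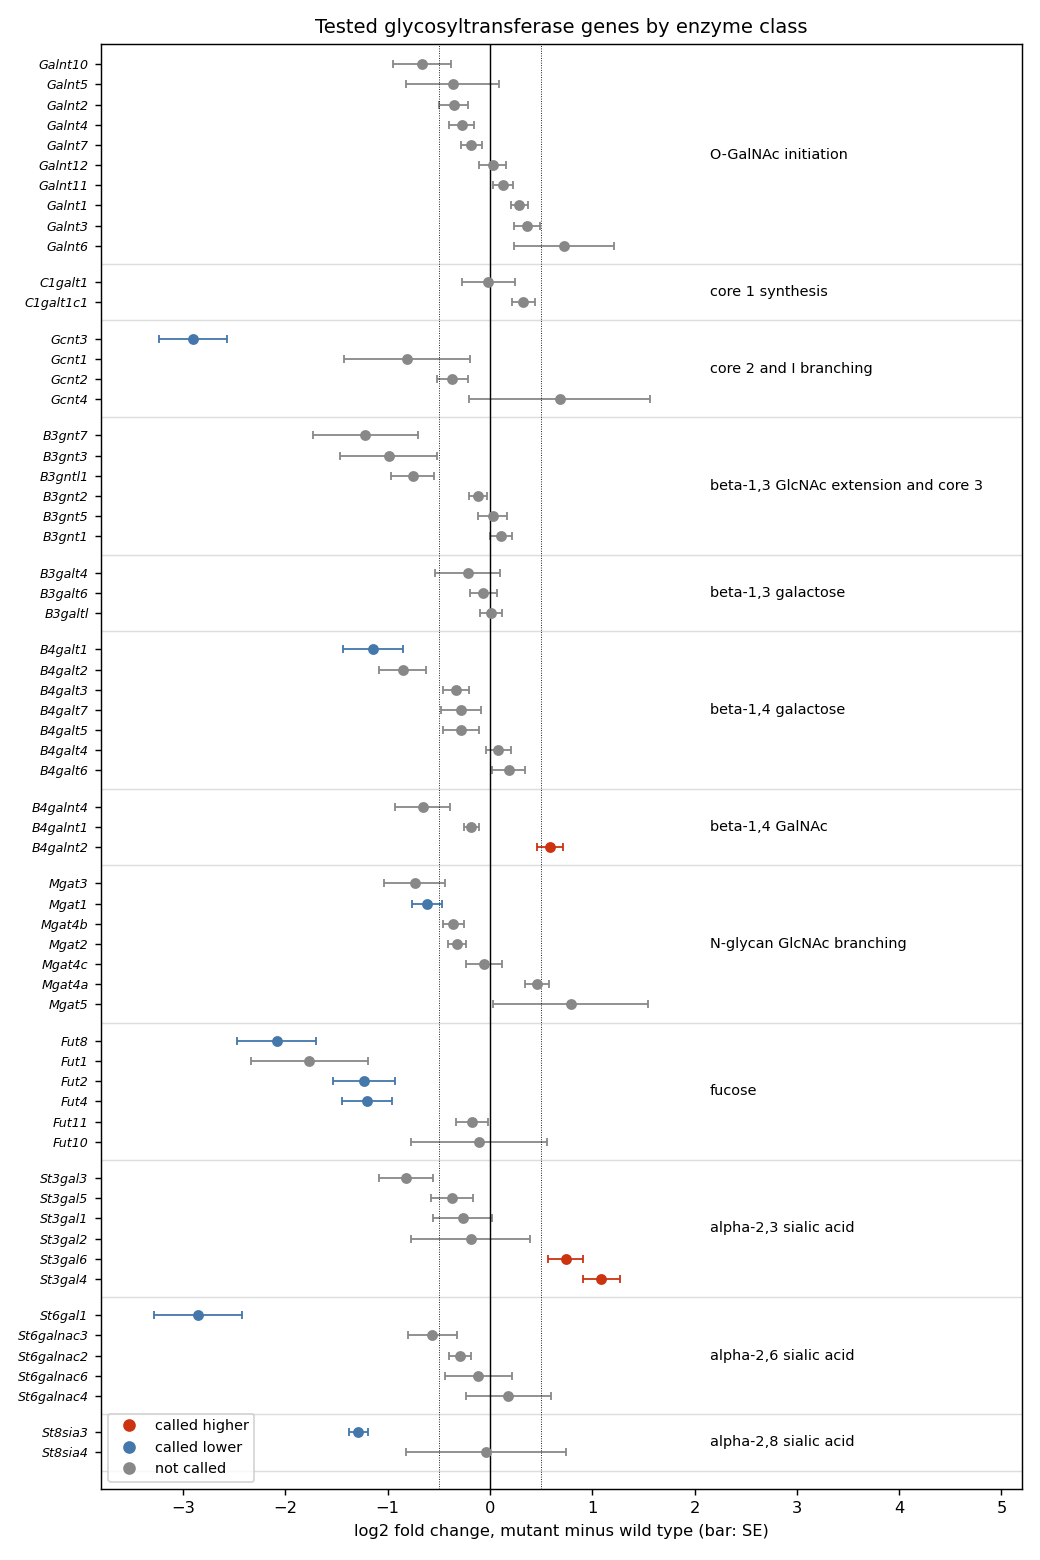
Log2 fold change (mutant minus wild type) of the 61 tested glycosyltransferase genes, grouped by enzyme class, with bars for the standard error and dotted lines at the minimum fold of 0.5 in either direction. Called genes are in colour: the 3 called higher are St3gal4, St3gal6 and B4galnt2, and Gcnt3 lies furthest to the left at -2.91.

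Transcripts for O-glycan initiation were abundant, and none met the call. The Galnt family, which adds the initiating GalNAc, held 18 genes, of which 10 were tested. Galnt1 was the most abundant of them per kilobase of exon in both groups, at 741 normalized counts per kb in wild type and 904 in mutants, or 33.3% and 38.5% of the class. Its normalized counts were 4539, 3641 and 4081 in wild type and 4945, 5043 and 4975 in mutants. Every mutant library was above every wild type library, but the log2 fold change of 0.29 (SE 0.08, adjusted p = 0.0148) did not reach the call.

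Galnt3, an initiating enzyme expressed in secretory epithelia, stood at 725, 671 and 692 normalized counts in wild type and at 728, 946 and 1013 in mutants. The first mutant library was barely above the highest wild type library, and the log2 fold change was 0.36 (SE 0.13, adjusted p = 0.0456). Both Galnt1 and Galnt3 passed the call with the correction for gene length, at 0.51 and 0.60, and neither did with that correction centred on 0 (0.32 and 0.42 on the log2 scale). The other tested genes of the class, which include Galnt2, Galnt4, Galnt7, Galnt11 and Galnt12, ranged from -0.66 (Galnt10) to 0.73 (Galnt6) without an adjusted p under 0.05.

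The 8 initiating genes that were not tested had few reads. Galnt13, Galnt15 and Galntl5 had none in any library. Galnt18 had 18, 8 and 13 reads in the wild type libraries and 1, 5 and 3 in the mutants, a depth-adjusted ratio of 0.262 (exact 95% interval 0.112 to 0.55). Galntl6 had 9, 12 and 10 reads against 3, 4 and 0, a ratio of 0.257 (0.0953 to 0.594). These intervals cover counting error only, not the spread between embryos. Galnt16 had 0, 8 and 6 reads in wild type and none in mutants, and Galnt14 none in wild type and 0, 5 and 3 in mutants, so that 1 library of the group with reads was at 0 in each case.

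**Figure D2:**
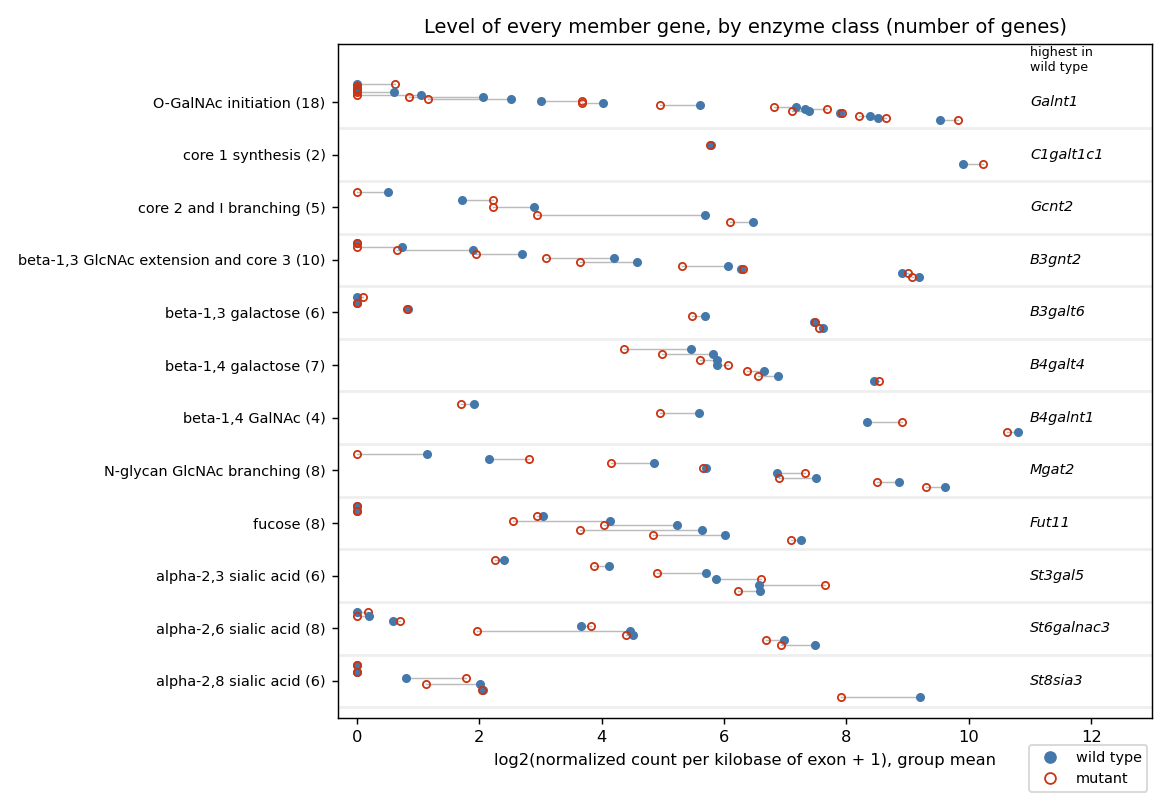
Group mean level of all 88 genes, as log2 of normalized count per kilobase of exon plus 1 on the horizontal axis, with a row for each enzyme class. Filled points are wild type and open points mutant, a line joins the values of a gene, and the name at the right is the gene with the highest wild type level in the class, such as St8sia3 at 586 per kb falling to 240.03.

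Core 1 synthesis, which adds galactose to the initiating GalNAc, rests on the enzyme C1galt1 and its chaperone C1galt1c1 (Cosmc). C1galt1 had a log2 fold change of -0.01 (SE 0.26, adjusted p = 0.974). C1galt1c1 had 1364, 1184 and 1598 normalized counts in wild type and 1666, 1926 and 1610 in mutants, with all mutant libraries above wild type by a small margin (0.33, SE 0.11, adjusted p = 0.0394). It is the only gene of the set on the X chromosome, and the groups also differed in Xist, so the part of sex was not tested.

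In core 2 and I branching 1 of 4 tested genes was called, Gcnt3, which was lower. Gcnt3, which makes the branched core 2 and core 4 O-glycans and I branches of mucin-secreting epithelia, had 182, 260.1 and 208 normalized counts in wild type. The mutant libraries had 20.7, 46.9 and 18.8. The highest mutant library was far below the lowest wild type library, and Gcnt3 fell by 2.91 on the log2 scale (SE 0.33, adjusted p = 1.4e-05), or 7.49-fold. The call held under all 14 alternatives tried, with log2 fold changes between -3.45 and -2.67. Gcnt3 lies at chr9:69879303-69885895 in mm9.

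The other branching enzymes were not called. Gcnt2, which makes I branches, was the most abundant per kb, at 87.5 in wild type and 67.9 in mutants. Its normalized counts were 650, 520.2 and 474 against 410.03, 439 and 427, which do not overlap, with a log2 fold change of -0.37 (adjusted p = 0.0727). Gcnt1, the core 2 enzyme of many tissues, was low and variable, at 15.0, 60.6 and 32.3 in wild type and 8.28, 22.4 and 31.0 in mutants. Of the summed level per kb of this class, Gcnt3 made up 34.2% in wild type and 7.98% in mutants, and Gcnt2 59.5% and 83.1%.

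The class of chain extension by beta-1,3-GlcNAc transferases, set by symbol stem and not by shown activity, held 10 genes, 6 of them tested and none called. B3gnt2, the main enzyme of poly-N-acetyllactosamine chains, was the most abundant per kb, at 582 in wild type and 538 in mutants (-0.12, adjusted p = 0.335). Its exons overlap Commd1 on the same strand over 74.6% of their length, so its level cannot be separated from that gene here, and its direction turned to 0.06 with the correction for gene length. B3gnt6, the core 3 synthase of the colon, had no read in any library.

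B3gntl1, placed in this class by its symbol alone, was its only gene at an adjusted p under 0.05. It had 222, 286 and 187 normalized counts in wild type and 146, 138 and 127 in mutants. The groups did not overlap, with a log2 fold change of -0.76 (SE 0.21, adjusted p = 0.0153), and without the third wild type library the adjusted p was 0.00627, which is a call. B3gnt7 and B3gnt3 were low in both groups, with log2 fold changes of -1.22 and -0.99 and adjusted p of 0.0863 and 0.129. The untested B3gnt9 had 4, 6 and 12 reads in wild type and 0, 2 and 2 in mutants, a ratio of 0.207 (exact 95% interval 0.0517 to 0.608).

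The beta-1,3-galactose class, 3 of 6 genes tested, had no gene at an adjusted p under 0.05. B3galt6, which adds a galactose to the linker of glycosaminoglycans, was the most abundant per kb at 195 in wild type and 186 in mutants. Its normalized counts of 686, 584 and 607 in wild type and 622, 525 and 648 in mutants overlapped, with a log2 fold change of -0.06 whose sign changed under 3 of 14 alternatives. B3galt5, an enzyme of type 1 chains, had no read in any library.

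All 7 beta-1,4-galactosyltransferases were tested, and only B4galt1 was called. B4galt1, the main galactosyltransferase of N-glycan antennae, had 189, 231 and 129 normalized counts in wild type and 116, 61.8 and 70.8 in mutants. The groups did not overlap, but the first mutant library lay close to the third wild type library. The log2 fold change was -1.14 (SE 0.29, adjusted p = 0.00831). The call was lost without the first or the second wild type library (adjusted p 0.0319 and 0.0566) and without the second or the third mutant library (0.0413 and 0.034), as well as with both corrections for gene length.

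B4galt2, a related enzyme of N-glycan antennae, had 262, 344 and 229 normalized counts in wild type and 109, 175 and 179 in mutants, again without overlap. Its log2 fold change was -0.85 (SE 0.23), and its adjusted p of 0.0116 was just outside the call. With DESeq2 it was 0.00703, and without the third wild type library 0.00784. Ccdc24 overlaps 28.2% of its exon length on the same strand. B4galt4, the most abundant per kb at 350.3 in wild type and 371 in mutants, had a log2 fold change of 0.08 (adjusted p = 0.655), and its sign changed without TMM factors and without the second wild type library.

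Among the beta-1,4-GalNAc transferases, 3 of 4 genes tested, only B4galnt2 was called. B4galnt2, which makes the Sda (Cad) antigen of the intestine by adding GalNAc to a sialylated galactose, rose in mutants. Its normalized counts were 549.52, 627 and 481 in wild type and 796, 901 and 792 in mutants. Every mutant library was above every wild type library, with a log2 fold change of 0.59 (SE 0.13, adjusted p = 0.00352). The call was lost without TMM factors (0.48), with the gene length correction centred on a median of 0 (0.42), without the first wild type library (adjusted p 0.017) and without the first or second mutant library (0.0111 and 0.0225). The antisense gene Gm11534 overlaps 15.3% of its exon length, and as no strand setting is stated its reads cannot be told apart.

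B4galnt1, the synthase of the gangliosides GM2 and GD2, had the highest level per kb of all 88 genes, at 1787 in wild type and 1577 in mutants. Its normalized counts of 4453, 4517 and 4049 in wild type were above the 3824, 3847 and 3815 of the mutants, with a log2 fold change of -0.18 (SE 0.07, adjusted p = 0.0689). Slc26a10, on the opposite strand, overlaps 29.4% of its exon length. B4galnt2 made up 14.8% of the class per kb in wild type and 23.0% in mutants.

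The GlcNAc transferases of N-glycan branching had log2 fold changes of both signs. Mgat1, which adds the GlcNAc that commits an N-glycan to hybrid or complex form, was called lower. Its normalized counts were 930.25, 967 and 674 in wild type and 549.82, 487 and 643 in mutants. The third library of each group lay close together, and the log2 fold change was -0.61 (SE 0.15, adjusted p = 0.00668). The call was lost without the first or second wild type library (adjusted p 0.0384 and 0.0428), without the first or second mutant library (0.0274 and 0.0376), with both corrections for gene length and with the replicate number as a block (0.0118).

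Mgat2, which adds the GlcNAc of the other arm, was the most abundant of the class per kb at 785 in wild type and 627 in mutants. Its normalized counts were 1999, 2127 and 2033 against 1495, 1672 and 1753, a small difference without overlap (-0.32, SE 0.09, adjusted p = 0.0125). Mgat4a and Mgat4b, which add the same beta-1,4 branch, had log2 fold changes of opposite sign. Mgat4a had 763, 949.98 and 834 normalized counts in wild type and 1260.1, 1067 and 1177 in mutants (0.46, SE 0.11, adjusted p = 0.00718), short of the minimum fold. It passed the call without the second wild type library (0.55, adjusted p 0.00741) and with the correction for gene length (0.67), but not with that correction centred on 0 (0.48).

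Mgat4b had 1242, 1412 and 1132 normalized counts in wild type and 985, 997 and 973 in mutants (-0.36, SE 0.11, adjusted p = 0.0193). The groups of both genes did not overlap. Per kb, Mgat4b remained the higher of the pair in mutants, at 362 against 158 for Mgat4a, where wild type had 464 and 115. Mgat3, which adds the bisecting GlcNAc, had a log2 fold change of -0.74 with an adjusted p of 0.0748. Mgat5b had 0, 13 and 5 reads in the wild type libraries and none in the mutants, so that 1 wild type library was also at 0.

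The promoter of Mgat1 is shown because it is a called gene with a match to a TCF/LEF word, the sequence family that TCF7L1 binds. Windows of 300 bases, from 250 before to 50 after each start, were read from the RefSeq table (GRCm38.p6) for 65 of the 88 genes, giving 91 windows. CTTTGAT or CTTTGAA on either strand stood in 3 of the 91 windows (3.3%), those of Fut8, Mgat1 and St8sia6, against 8.65% of all 32851 windows. It stood in 2 of the 12 windows of genes called lower and in 0 of the 4 of genes called higher. The 12 windows were those of Mgat1, Fut8, St6gal1, Fut4 and B4galt1, the first 3 with several windows each, so they are not a count of genes. Gcnt3, St8sia3 and Fut2 had no window. The FOXA word TGTTTAC stood in 2 of 91 windows (2.2%), where all windows had 3.65%. A match is only a run of letters and was not measured as binding. The stretch below is the 250 bases before 1 of the 3 Mgat1 starts, at chr11:49060729-49060978 on the plus strand of mm9, written 5′ to 3′ with the match (reverse strand, 137 to 131 bases before the start) in capitals.
Mgat1: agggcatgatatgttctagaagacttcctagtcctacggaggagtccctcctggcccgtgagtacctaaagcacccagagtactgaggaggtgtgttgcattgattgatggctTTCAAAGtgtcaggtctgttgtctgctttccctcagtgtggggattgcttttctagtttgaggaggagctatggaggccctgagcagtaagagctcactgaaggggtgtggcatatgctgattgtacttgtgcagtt

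The fucosyltransferases had a median log2 fold change of -1.22, where that of all tested genes was -0.04. All 6 tested genes had negative log2 fold changes, but Fut10 and Fut11 turned to 0.13 and 0.00 with the correction for gene length. Fut10 had 42.2, 34.5 and 32.3 normalized counts in wild type and 47.6, 51.1 and 2.21 in mutants. Its first and second mutant libraries were above every wild type library, so its negative sign rested on the third. Of the 6 tested fucosyltransferases, 3 were called lower (50%, where 5.83% of all tested genes were) and none higher. Fut8, which adds the core fucose of N-glycans, had 196, 172 and 129 normalized counts in wild type and 45.6, 13.8 and 57.5 in mutants. The groups were well apart, and Fut8 fell by 2.09 on the log2 scale (SE 0.38, adjusted p = 0.00105). The call held under all 14 alternatives.

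Fut2, which makes the H antigen on gut epithelium and mucins, had 105, 116 and 102 normalized counts in wild type and 37.3, 44.7 and 55.3 in mutants. Each group was tight and the difference was -1.23 (SE 0.31, adjusted p = 0.00739). At these low counts the call was lost when any of the 6 libraries was left out (adjusted p 0.0109 to 0.0334), with the correction for gene length (0.0132) and with the replicate number as a block (0.0125). Fut1, the H antigen enzyme of other cells, lies 27535 bases from Fut2 on chromosome 7 and had 61.0, 42.0 and 25.7 normalized counts in wild type and 6.21, 17.0 and 14.4 in mutants. Its groups did not overlap (-1.77, SE 0.57, adjusted p = 0.0303), but neither its adjusted p nor its mean count met the call.

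Fut4, which makes the Lewis X and related antigens, had 248, 273 and 183 normalized counts in wild type and 126, 106 and 73.0 in mutants. All mutant libraries were below all wild type libraries, with a log2 fold change of -1.20 (SE 0.25, adjusted p = 0.00221). The call was lost without the first or second wild type library (adjusted p 0.0125 and 0.0161) and without the third mutant library (0.0114). Fut4 is shown as the called-lower gene of smallest adjusted p among those with a single window in the table. Neither word was found in its window. The 250 bases before its start lie at chr9:14556567-14556816 on the minus strand of mm9 and are 67.6% G or C.
Fut4: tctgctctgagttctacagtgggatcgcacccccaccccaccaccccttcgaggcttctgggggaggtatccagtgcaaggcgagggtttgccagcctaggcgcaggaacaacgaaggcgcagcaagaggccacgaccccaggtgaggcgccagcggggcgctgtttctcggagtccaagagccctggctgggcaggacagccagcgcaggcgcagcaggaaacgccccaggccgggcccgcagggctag

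The other tested genes of the class, Fut10 and Fut11, were not called. Fut11 was the most abundant per kb, at 153 in wild type and 135 in mutants, with overlapping normalized counts of 456, 615 and 459 against 519, 420 and 418 (-0.17, adjusted p = 0.441). Fut7 and Fut9 had no read in any library. After these values had been seen, the genes at an adjusted p under 0.05 and the rest were summed apart, a split that fixes the outcome and is only a description. Summed per kb, Fut1, Fut2, Fut4 and Fut8 stood at 185, 181 and 133 in wild type and at 63.0, 54.9 and 61.2 in mutants. The sum of Fut10 and Fut11 overlapped between groups, at 145, 191 and 144 against 165, 136 and 125. Fut11 thus made up 46.9% of the class per kb in wild type and 67.0% in mutants.

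**Figure D3:**
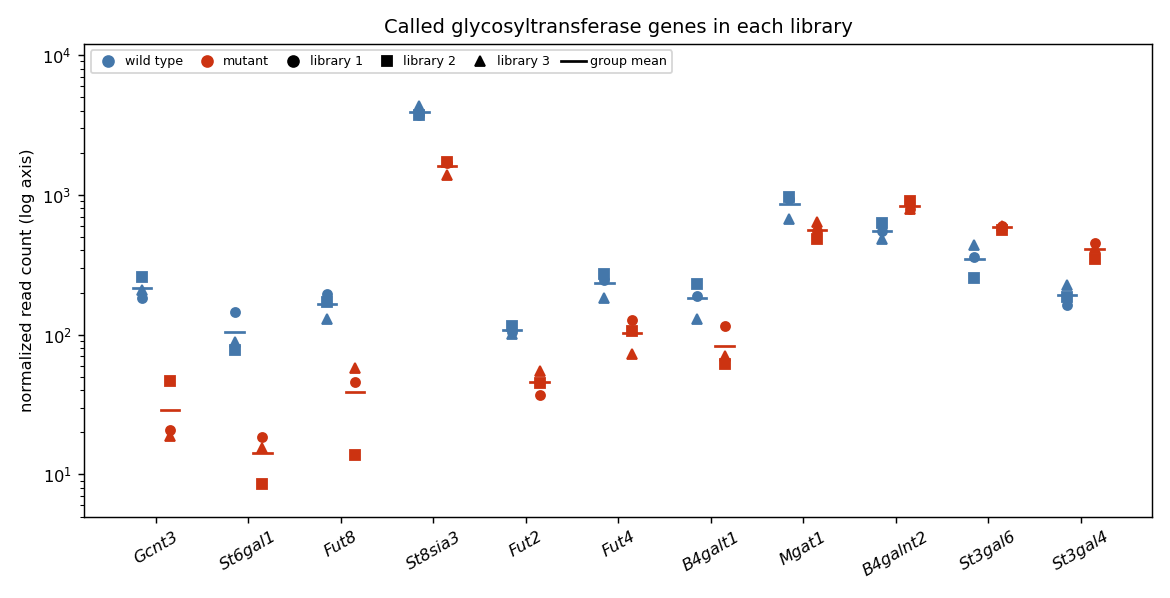
Normalized read count on a log axis of the 11 called glycosyltransferase genes in each of the 6 libraries, blue for wild type and red for mutant, with the library number as the symbol and a bar at each group mean. The genes run from Gcnt3, with mutant libraries at 18.8 to 46.9 and wild type at 182 to 260.1, to St3gal4 at 349 to 456 and 163 to 225, and in none do the groups overlap.

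The sialyltransferases, which cap chains with sialic acid, were called in both directions. Of the alpha-2,3 class all 6 genes were tested, and St3gal4 and St3gal6, which both cap galactose of N-acetyllactosamine ends, rose in mutants. St3gal4 had 163, 186 and 225 normalized counts in wild type and 456, 349 and 418 in mutants. The lowest mutant library was well above the highest wild type library, a 2.13-fold difference of means with a log2 fold change of 1.09 (SE 0.18, adjusted p = 4.7e-04). The call held under all 14 alternatives. St3gal4 is shown as the called-higher gene of smallest adjusted p, and its window has no match to either word. The 250 bases before its start, at chr9:34924450-34924699 on the minus strand of mm9, are 72.8% G or C.
St3gal4: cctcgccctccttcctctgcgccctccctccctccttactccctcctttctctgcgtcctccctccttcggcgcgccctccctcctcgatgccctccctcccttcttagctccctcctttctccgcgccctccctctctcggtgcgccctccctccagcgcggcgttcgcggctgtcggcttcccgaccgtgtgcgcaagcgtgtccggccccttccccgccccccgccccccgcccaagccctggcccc

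St3gal6 had 361, 254 and 434 normalized counts in wild type and 597, 560.15 and 595 in mutants. The mutant libraries were tight and above a spread wild type group, with a log2 fold change of 0.74 (SE 0.17, adjusted p = 0.00514). The call was lost without TMM factors and when any library but the third wild type library was left out, with adjusted p of 0.0179 and 0.0238 without the first and second wild type libraries and of 0.0208, 0.0142 and 0.0185 without each mutant library in turn. Dcbld2, on the opposite strand, overlaps 26.4% of its exon length.

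St3gal3, an enzyme of type 1 and N-glycan ends, went the other way, at 109, 137 and 179.63 normalized counts in wild type and 78.7, 87.3 and 75.2 in mutants. The groups did not overlap, and the log2 fold change was -0.82 (SE 0.27, adjusted p = 0.0307). St3gal5, the GM3 synthase at the root of the gangliosides, had a log2 fold change of -0.37 (adjusted p = 0.189). Per kb, St3gal4 made up 29.5% of the class in wild type and 48.1% in mutants, and St3gal5 30.1% and 17.6%.

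In the alpha-2,6 class St6gal1 was called lower. St6gal1, which caps the antennae of N-glycans with alpha-2,6 sialic acid, had 145, 77.4 and 88.4 normalized counts in wild type and 18.6, 8.52 and 15.5 in mutants. Every mutant library was several-fold below every wild type library, and St6gal1 fell by 2.86 on the log2 scale (SE 0.43, adjusted p = 1.9e-04), or 7.24-fold. Without the first wild type library the log2 fold change was -2.53 (adjusted p 0.00367) but the mean count no longer reached 50.

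St6galnac3, of the enzymes that add sialic acid to GalNAc, was the most abundant of the class per kb, at 179 in wild type and 121 in mutants, on an annotated exon length of 918 bases. Its normalized counts of 187, 152 and 154 in wild type were above the 84.9, 122 and 126 of the mutants, with a log2 fold change of -0.56 (adjusted p = 0.0876). St6galnac1, the enzyme of the sialyl-Tn antigen of mucins, had 0 reads in wild type and 1 in mutants.

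The sum of St3gal4 and St3gal6 per kb, which share acceptors with St6gal1, was set against St6gal1 in each library after the values of these genes had been seen. The ratio was 4.73, 8.48 and 10.1 in wild type and 85.1, 152 and 96.5 in mutants. The lowest mutant ratio was above the highest wild type ratio, which follows from the calls of the 3 genes and is a description, with no test.

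**Figure D4:**
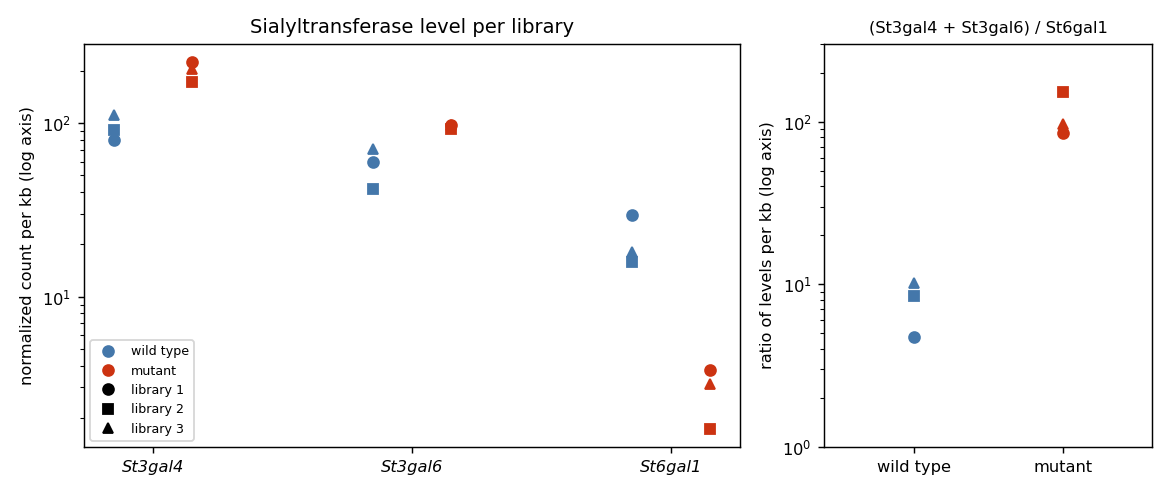
Left, level per library (normalized count per kilobase of exon, log axis) of St3gal4, St3gal6 and St6gal1, blue for wild type and red for mutant, with the library number as the symbol. Right, the ratio of the summed St3gal4 and St3gal6 levels to that of St6gal1 (log axis), at 4.73 to 10.1 in wild type and 85.1 to 152 in mutants.

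Of the 6 alpha-2,8 genes, which join sialic acids to each other, 2 were tested. St8sia3, an alpha-2,8-sialyltransferase of glycolipids and glycoproteins best known from brain, was by far the most abundant, making up 98.9% of the class per kb in wild type and 97.1% in mutants. It had 3731, 3699 and 4293 normalized counts in wild type and 1683, 1722 and 1395 in mutants. Both groups were tight, and St8sia3 fell by 1.29 on the log2 scale (SE 0.09, adjusted p = 1.0e-07). The call held under all 14 alternatives, and the antisense gene 1700091E21Rik overlaps 9.41% of its exon length. The polysialic acid enzyme St8sia4 was low, with a log2 fold change of -0.04 (adjusted p = 0.979). Its partner St8sia2 had 3, 0 and 49 reads in wild type and 8, 0 and 10 in mutants, so that most of its wild type reads were in 1 library. St8sia5 had reads only in the third library of each group, 5 in wild type and 14 in mutants, and no direction was read from either gene.

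Genes that supply, accept or further process these chains were taken from 7 lists of 102 genes, 100 of them in the tables and 78 tested. Of these, 2 were called higher and 3 lower, 6.41% of those tested, and their median log2 fold change was -0.01. At an adjusted p under 0.05, 10 were higher and 11 lower, 26.9% of those tested. Neither share was above that of all tested genes (8.62% and 28.7%). The mucin list had 3 tested genes of 10 in the tables. Muc13, a surface mucin, rose from 2304 ± 203 to 3979 ± 233 normalized counts (SD, n = 3; log2 fold change 0.79, adjusted p = 6.2e-06), and Muc1, also a surface mucin, fell from 337 ± 16.3 to 43.2 ± 24.1 (-2.96, adjusted p = 3.3e-06). The secreted mucin Muc2 had no read in wild type.

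The fucose donor list, all 11 genes tested, had 1 called higher and none lower. Gmds, the dehydratase that begins GDP-fucose synthesis, rose from 3533 ± 109 to 5568 ± 242 normalized counts (SD, n = 3; 0.66, adjusted p = 6.7e-06), while 4 fucosyltransferases were lower at an adjusted p under 0.05. Of 18 genes for UDP-sugar synthesis and transport, only Gfpt2, which starts the hexosamine pathway, was called. It fell from 442 ± 49.6 to 252 ± 45.1 (-0.81, adjusted p = 0.003). Gfpt1 of the same list went from 447 ± 19.1 to 538 ± 16.3 (0.27, adjusted p = 0.137). In this list 11 genes were positive and 7 negative, with a median of 0.17. At an adjusted p under 0.05, 3 were higher and 1 lower.

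Among 25 other glycosyltransferases, 19 of them tested, B3galnt1, the globoside synthase, fell from 91.9 ± 12.6 to 19.9 ± 6.6 (SD, n = 3, log2 fold change -2.20, adjusted p = 8.1e-04). No gene was called among 9 for sialic acid donor synthesis and transport, 13 glycan sulfotransferases and 14 sialidases and trimming enzymes. At the looser threshold the sialic acid donor list had 1 higher and 1 lower, the sulfotransferases 0 and 1, and the trimming list 2 and 3.

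Some markers of goblet and gastric cells were also lower in the mutant libraries. Of 8 goblet cell markers 4 were tested, 2 were called lower (Agr2 and Fcgbp) and none higher, with a median log2 fold change of -1.11, where 5.83% of all tested genes were called lower. Tff3 had a log2 fold change of -0.25 (adjusted p = 0.546). The list summed to 1301 to 1576 normalized counts in wild type and 394 to 532 in mutants, and Muc2 and Zg16 were at or near 0 in both. Of 8 gastric markers 4 were tested and 1, Cldn18, was called lower, with a median of -1.79, while Gkn1 averaged 43.4 in both groups. That list summed to 459.5 to 482 in wild type and 109.76 to 140.49 in mutants, with Muc6 at 0 in all libraries. Sox2 averaged 9.41 normalized counts in wild type and had none in mutants. The part of either marker list in the glycosyltransferase differences was not tested.

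Markers of other cells had no call. The mesenchyme list summed to 1315 to 1537 in wild type and 1030.3 to 1459 in mutants, and neither it nor the neural crest list (180.05 to 209.76 and 162 to 233) had a called gene. Most of the mesenchyme sum was Vim, at 1179, 1389 and 1188 in wild type and 912, 864 and 962 in mutants (log2 fold change -0.46, adjusted p = 0.00494). Acta2, a smooth muscle actin, had 69.4, 105 and 87.4 in wild type and 95.3, 171 and 489 in mutants (1.52, adjusted p = 0.0142), its highest value in the third mutant library. Col3a1 had 42.2, 37.3 and 10.5 in wild type and 8.28, 6.39 and 4.42 in mutants (-2.21, adjusted p = 0.0263). The untested Pdgfra had 21.6, 5.59 and 20.0 in wild type and 0, 0 and 1.11 in mutants. The blood list summed to 22.8 to 34.5 in wild type and 5.32 to 10.4 in mutants. Its only tested gene, Hbb-y, had a log2 fold change of -2.07 (adjusted p = 0.0281). The endothelial list summed to at most 20.7 in any library. The part of these cells in the differences was not tested.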

How the data were processed

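The authors sorted 500 EpCAM-positive cells per library, amplified SMARTer cDNA through 15 PCR cycles, and aligned reads to mm9 with STAR 2.5.2b. Uniquely aligned reads were assigned to genes of a UCSC model by featureCounts 1.5.1. They deposited raw read counts, not normalized. Strand setting, sex and litter are not given in the sources used here. PCR copies were not marked by molecular identifiers.

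Genotype was tested in R 4.3.3 by edgeR 4.0.16 (TMM factors 0.957 to 1.06, filterByExpr, quasi-likelihood test with no covariate, Benjamini-Hochberg adjustment over 12501 genes). The biological coefficient of variation was 0.144. The authors' RPKM minimum was replaced by one of 50 on mean normalized counts. Normalized counts are counts divided by TMM-scaled library size, times its mean over the 6 libraries. Levels per kb use union exon length from GENCODE vM1 on mm9, which covered all 88 genes. Per gene, chi-square between replicates was 5.66 to 15.8 and between groups 24.1 to 46.6, so no library was counted as a repeat. Transcripts of 4 members (B3gnt2, B3gnt4, Galnt2 and St6galnac1) matched another gene at 95% identity or more over at least 50% of their length (BLAST+ 2.17.0), all at overlapping loci. On simulated counts for the 12501 genes of this comparison, with 200 changed, edgeR recovered 98% with 3 false calls and DESeq2 1.42.0 97.5% with 3. Every simulated gene had the same dispersion, and changed genes had a mean of at least 50 and a log2 fold change of at least 1 in size. Smaller changes and more variable genes were not simulated, so these shares do not give the error rate of the calls here.

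Values in every library are given for glycosyltransferases that were called, that had an adjusted p under 0.05, or that were the most abundant of their class by the mean per kb. Of the other lists, called genes are named. Other genes named were chosen after their values were seen. The members and lists were chosen with earlier results of these data known. Alternatives were other normalizations, DESeq2, other filters, gene length correction (a loess of span 0.5), the replicate number as a block, each library left out, and other thresholds.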

Additional observations from a re-analysis of the deposited data

How the results depend on the processing

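Of the 11 called glycosyltransferases, 4 (Gcnt3, Fut8, St3gal4 and St8sia3) were called under all 14 alternatives, and none changed direction. The count called higher, 3 in the report, was 1 without TMM factors, 6 with the gene length correction, 1 at a log2 fold change of at least 1, 7 at an adjusted p under 0.05 alone, and 1 to 3 when each library was left out. The count called lower, 8 in the report, was 5 with the gene length correction, 14 at an adjusted p under 0.05 alone and 3 (without the first wild type library) to 10 (without the third) when each library was left out. DESeq2 gave 3 higher and 9 lower. The whole table moved in the same direction under these settings. Of all tested genes 348 were called higher and 729 lower in the report, and 799 and 406 with the gene length correction. Without the first wild type library 405 were lower, and without the third 867. Without TMM factors 200 were higher and 958 lower. Among the listed pathway genes, 2 higher and 3 lower became 5 higher with the length correction, 1 higher with that correction centred on 0 (chosen after seeing the data), 6 higher with no minimum fold, 0 higher at a log2 fold change of at least 1 and at an adjusted p under 0.05 alone 10 higher and 11 lower, and the lower count was 1 to 4 when each library was left out. The median of the initiating class was -0.19 without TMM factors, -0.20 with a filter at a mean of 50 and 0.075 with the length correction. That of the beta-1,3-GlcNAc class was -0.54, -0.13 and -0.25 in the same order and -0.51 to -0.32 when each library was left out. That of core 2 and I branching was -1.65 with the filter, and with the length correction those of the beta-1,3-galactose, beta-1,4-galactose and alpha-2,6 classes were 0.10, -0.11 and -0.082. Signs were followed for the 28 genes that were called, had an adjusted p under 0.05 or were the most abundant of their class. With the length correction, signs turned for B3gnt2 (0.061), B3galt6 (0.10) and Fut11 (0.00269). B3galt6 also turned without the first wild type (0.00746) or second mutant library (0.022, range over libraries left out -0.12 to 0.022). B4galt4 turned without TMM factors (-0.020) or the second wild type library (-0.058, range -0.058 to 0.17). None of these passed the threshold. Genes outside these 28 also turned with the length correction, such as Fut10 (0.13) and Galnt7 (0.044). Of all 61 tested genes 28 were then positive, where 18 were in the report. The cause was not tested. Same-numbered libraries did not deviate together (r 0.01, -0.04 and -0.02), and pairs of unlike number had r of -0.02 to 0.04. Replicate number thus showed no pairing here, but 3 libraries per group are too few to show that there was none. With replicate number as a block, 3 were called higher and 7 lower, Mgat1 and Fut2 being lost and B4galt2 gained.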
